A study of Homo sapiens with 12 samples.

Results

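The genes described here are 10 genes of the urea cycle and of ammonia handling next to it, out of 29245 gene names on the arrays: NAGS, CPS1, OTC, SLC25A15, ASS1, ASL, ARG1, ARG2, GLUD1 and GLUL. A probe was taken when the gene name in the scanner files was one of these 10, which gave 12 probes. NAGS had 3 of them and each other gene had 1. The genes belong together by pathway, but the group was chosen with knowledge of the values on these same arrays, where ARG1 stood out. Their levels and differences between groups are therefore given as a description, with no test of their own.

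RNA came from HuH-7, a line grown from a human hepatocellular carcinoma, and all cells carried the p53 mutant Y220C. Cells received the solvent DMSO, SLMP53-2 at 28 µM (2 times the IC50, the concentration of median growth inhibition) or SLMP53-2 at 42 µM (3 times the IC50), each for 24 h. SLMP53-2 is the compound the study examined for reactivation of mutant p53. The treatment and description fields of the highest dose read 48 µM, while the sample titles and the treatment protocol read 42 µM, and 42 µM is used here. Each group had 4 biological replicates and each replicate had 1 one-colour Agilent array, so 12 arrays on 5 slides. All groups are the same cell line, so the replicates measure the spread between cultures of 1 line.

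The urea cycle turns ammonia and the amino group of aspartate into urea in periportal hepatocytes. Its first steps lie in mitochondria, where CPS1, activated by the product of NAGS, makes carbamoyl phosphate and OTC joins it to ornithine, which SLC25A15 carries in. In the cytosol ASS1 and ASL make arginine, and ARG1 cleaves it to urea and ornithine. Hepatoma lines are known to keep the cycle incompletely, and ASS1 is often silenced in such tumours.

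The promoter is shown for the gene with the lowest difference from DMSO (ARG1), for its mitochondrial counterpart (ARG2) and for the gene with the highest difference from DMSO (ASS1), as the 250 bases before the transcription start in RefSeq on GRCh38.p14. Capitals mark a GC box (GGGCGG on either strand) or a TATA box (TATAAA on either strand).

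ARG1, chr6:131572976-131573225, plus strand: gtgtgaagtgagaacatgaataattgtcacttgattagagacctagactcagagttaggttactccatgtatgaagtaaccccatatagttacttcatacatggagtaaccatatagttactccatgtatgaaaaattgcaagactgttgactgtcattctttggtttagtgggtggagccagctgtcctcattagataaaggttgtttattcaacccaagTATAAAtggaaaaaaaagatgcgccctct
ARG2, chr14:67619670-67619919, plus strand: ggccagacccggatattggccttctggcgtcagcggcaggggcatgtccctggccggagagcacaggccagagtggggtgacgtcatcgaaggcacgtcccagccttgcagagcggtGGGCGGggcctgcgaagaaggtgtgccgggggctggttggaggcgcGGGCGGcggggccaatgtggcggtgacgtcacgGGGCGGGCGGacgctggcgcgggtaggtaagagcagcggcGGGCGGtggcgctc
ASS1, chr9:130444457-130444706, plus strand: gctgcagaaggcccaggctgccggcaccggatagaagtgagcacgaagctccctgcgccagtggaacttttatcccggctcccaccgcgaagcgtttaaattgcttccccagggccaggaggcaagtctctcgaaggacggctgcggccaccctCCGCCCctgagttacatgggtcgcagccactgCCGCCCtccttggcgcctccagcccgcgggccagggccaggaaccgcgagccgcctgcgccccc

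The 3 windows differed in base composition. G and C made up 37.6% of the ARG1 window, 72.4% of the ARG2 window and 68.4% of the ASS1 window. The ARG1 window held 1 TATA box, beginning 29 bases before the start, and no GC box. All 10 genes had a window in the RefSeq table, 14 windows in all since some genes have several starts. A GC box was found for 7 of the 10 genes, the exceptions being ARG1, CPS1 and OTC, and in 42.6% of the 35116 windows of the table. A TATA box was found for ARG1 and OTC, and in 10.7% of all windows. The E-box CACGTG was found for ASS1 (window 2, not the window shown above) and CPS1 (window 3), and in 6.34% of all windows. A gene was counted when any of its windows matched, whereas the percentages count single windows, so the 2 are not on the same footing. Neither the C/EBP letters TTGCNNAA (9.05% of all windows) nor the C/EBP-ATF letters TGATGNAA (3.14%) were in any of the 14 windows. These are matches of letters and were not tied to binding of a factor.

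The probes that carry the main values are shown by the first 30 of their 60 bases, as the scanner files give them.

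ARG1 probe: tggaatcaggagacaaagctaccacatgtg
ARG2 probe: tttggtcagacaagagaaggagggcatatt
ASS1 probe: tccctggaggatgcctgaattctacaaccg

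The scanner files place the ARG1 probe at chr6:131905373-131905432, the ARG2 probe at chr14:68117539-68117598 and the ASS1 probe at chr9:133342120-133342179 on hg19, and the exon or untranslated region they fall in is not given in the sources used here. On the same build the SLC25A15 probe lies at chr13:41386089-41386148, that of CPS1 at chr2:211542613-211542672, that of OTC at chrX:38271152-38271211, that of GLUD1 at chr10:88811026-88811085 and that of GLUL at chr1:182352737-182352796. The NAGS probes lie at chr17:42086324-42086383, chr17:42086302-42086361 and, across a gap, chr17:42085117-42085850, in the order in which they are described. The ASL probe lies at chr7:65554654-65557023, also across a gap. The ASS1 gene has 14 pseudogenes listed in RefSeq, GLUD1 and GLUL have 6 each and ASL has 1, so that RNA of near-identical copies could add to these probes. GLUD2 is a near copy of GLUD1 as well.

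The label of a hepatocyte-derived line was checked against marker genes. All 7 hepatocyte markers (ALB, APOA1, APOB, FGB, SERPINA1, TF and TTR) were well above background on all 12 arrays. So were both hepatoma markers (AFP and GPC3). The summed hepatocyte level lay between 17.20 and 17.42 on the log2 scale in all groups. TTR is not in that sum, since its probe lacked a normalized value on part of the arrays. Of the markers of other cells, PTPRC was detected on none of the 12 arrays, while CD3E, CD79A, CD163, CD68, VWF and COL3A1 had a probe detected on all 12. The summed macrophage markers lay between 8.24 and 8.30 in DMSO, between 8.42 and 8.52 at 28 µM and between 8.27 and 8.57 at 42 µM. The summed stromal markers lay between 8.54 and 8.56, between 8.42 and 8.47 and between 8.33 and 8.45. The macrophage ranges of DMSO and 28 µM did not overlap, nor did the stromal range of DMSO with that of either dose, and their part in the results was not tested. These sums rest partly on probes near background, with COL1A1 at 5.99 to 6.20 and CD163 from 5.87. The COL3A1 probe detected on all 12 arrays read 6.05 to 6.55. CD79A was brighter, at 9.50 to 10.20. The summed leukocyte markers lay between 10.39 and 10.62 in DMSO, between 10.01 and 10.63 at 28 µM and between 10.15 and 10.66 at 42 µM. Not all markers of other cells were therefore near background. Of all tested genes, 2.78% lay wholly above DMSO at 28 µM, 2.93% wholly below it at 28 µM and 7.01% wholly below it at 42 µM. Between 65% and 85% of gene spots per array were well above background, and no gene spot was saturated.

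No array was an outlier of its group by Dixon's test in any of the 36 sets of 4 values (12 probes in 3 groups). The array of 28 µM replicate 4 lay within the DMSO range in ARG1 and was the closest treated array to it in ASS1. Leaving it out therefore favours a call of ARG1 and ASS1, and their calls without it are given as a description only. The 28 µM results of ARG1, ASS1, NAGS and the counts of called genes are given with and without it. With all arrays, 0 of 24251 tested genes were called higher (0%) and 0 were called lower (0%) at 28 µM, where called means a limma adjusted p below 0.05 and a log2 difference of at least 0.6 in size. At an unadjusted p below 0.05 with the same size limit limma gave 401 higher and 324 lower genes, with ASS1 among the former and ARG1 among the latter. Without 28 µM replicate 4, limma called 438 of 33467 tested probes higher and 281 lower at that dose, with ASS1 among the former and ARG1 among the latter.

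At 42 µM, 1 of the 10 genes was called higher, ASS1, against 1.73% of all tested genes, and 1 was called lower, ARG1, against 1.58%. Because the group was chosen from these contrasts, nothing is read from these counts. The median log2 difference over the 10 genes, each by its brightest probe, was 0.14 at 28 µM and -0.001 at 42 µM, beside -0.02 at both doses over all 24251 tested genes. The 10 genes did not move as a block: 5 of them were above 0 at 42 µM, and the range ran from -1.84 for ARG1 to 1.80 for ASS1. All 12 probes passed the filter on dim probes, CPS1 and OTC only just.

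**Figure D1:**
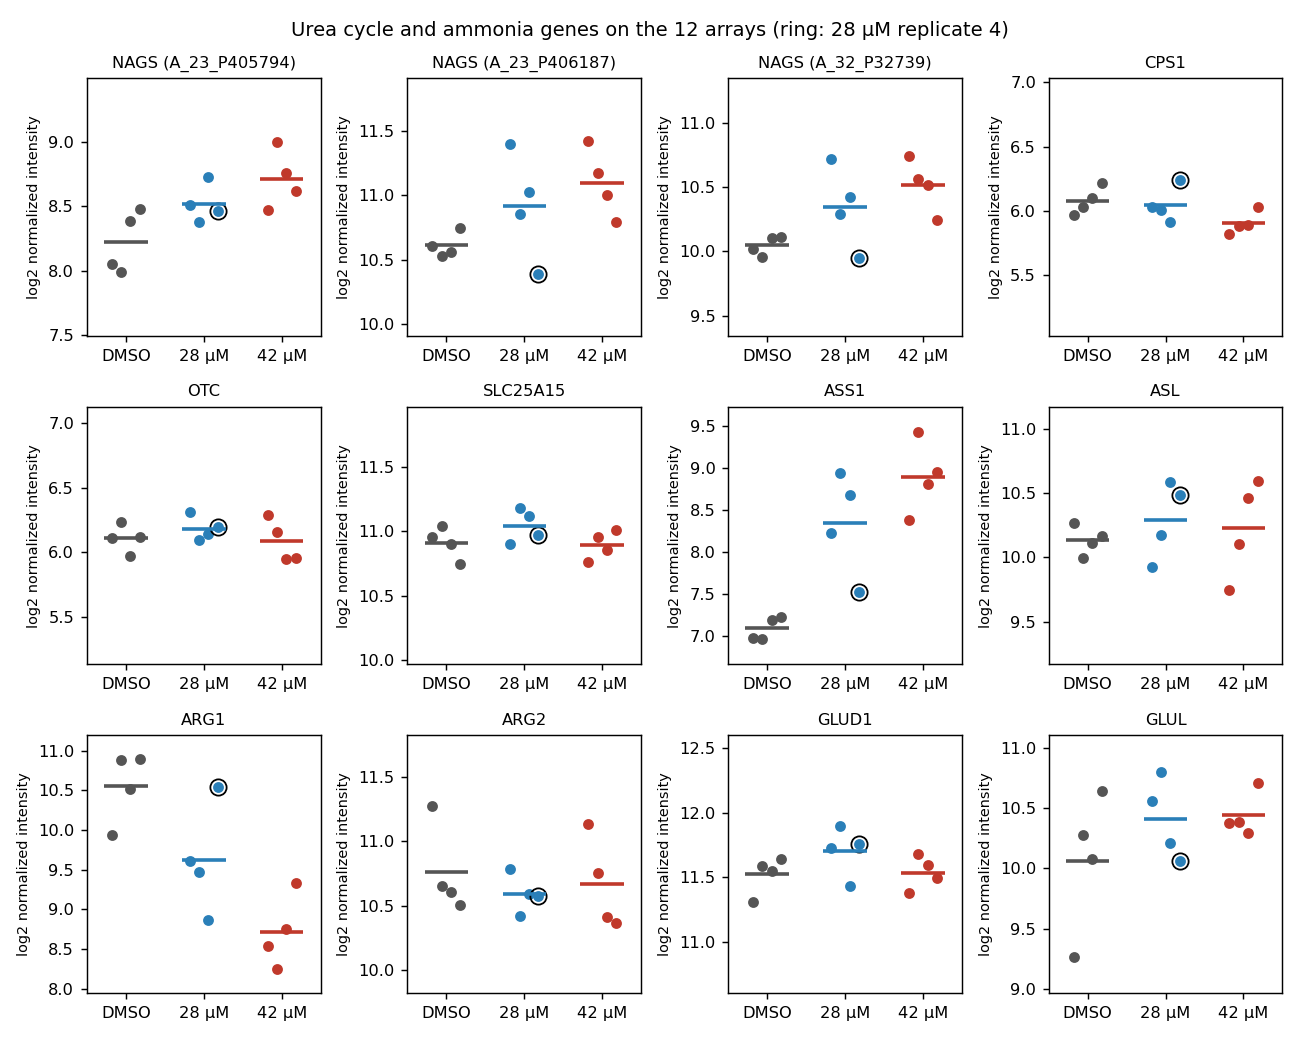
Log2 normalized intensity of the 12 probes on each of the 12 arrays, 1 panel per probe, with DMSO, 28 µM and 42 µM SLMP53-2 on the horizontal axis; points are arrays, horizontal bars are means of 4 arrays and the ring marks 28 µM replicate 4. Compared between groups within its own panel, ARG1 has its lowest mean at 42 µM (points 8.25 to 9.33). ASS1 has its highest mean there (points 8.39 to 9.43). The CPS1 and OTC points stay between 5.82 and 6.31 in all groups.

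ARG1, the cytosolic arginase that releases urea in liver, was lower on treated arrays. In DMSO replicates 1 to 4 its log2 level was 9.94, 10.88, 10.52 and 10.90. At 28 µM it was 9.62, 9.47, 8.86 and 10.54. At 42 µM it was 8.54, 8.25, 8.76 and 9.33. All 4 arrays at 42 µM lay below all DMSO arrays, which held for 7.01% of all tested genes, whereas at 28 µM replicate 4 lay within the DMSO range. The arrays measure RNA of whole cultures, so fewer cells with ARG1 RNA and less of it per cell cannot be told apart. Group means were 10.56 ± 0.45, 9.62 ± 0.69 and 8.72 ± 0.46 (SD, n = 4 each).

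ARG1 fell by 1.84 on the log2 scale at 42 µM (SE 0.33, 95% interval -2.55 to -1.14), so that the level was 3.59-fold lower than in DMSO (interval 2.20 to 5.86). This was the fourth lowest difference of 24251 tested genes. At 28 µM the difference was -0.94 (SE 0.33, interval -1.65 to -0.23), not called, and it was -1.25 and called without replicate 4. The difference between the doses, 42 µM minus 28 µM, was -0.90 (interval -1.61 to -0.20) and -0.60 without 28 µM replicate 4. Between the doses limma called 0 genes higher (0%) and 0 lower (0%), with 38 and 55 past the size limit at an unadjusted p below 0.05, and ARG1 was among the 55. The ranges of the doses overlapped. The call at 42 µM was lost without DMSO replicate 2 (-1.74), without 42 µM replicate 2 (-1.69) and with the slide as a fixed block (-2.11). Without DMSO replicate 2 or without 42 µM replicate 2, limma called 0 probes higher and 0 lower of all tested at 42 µM. With the slide as a fixed block it called 0 higher and 1 lower.

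ARG2, the mitochondrial arginase found in many tissues, was not called at either dose. Its log2 level in DMSO was 11.28, 10.66, 10.61 and 10.51. At 28 µM it was 10.79, 10.42, 10.59 and 10.58, and at 42 µM it was 11.14, 10.76, 10.41 and 10.37. The ranges of the 3 groups overlapped. The difference against DMSO was -0.17 at 28 µM (interval -0.59 to 0.25) and -0.09 at 42 µM (interval -0.51 to 0.33).

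ASS1, which joins citrulline and aspartate and limits arginine synthesis in many tumours, was higher on treated arrays. Its log2 level in DMSO was 6.98, 6.96, 7.19 and 7.23. At 28 µM it was 8.23, 8.94, 8.68 and 7.53, and at 42 µM it was 8.39, 9.43, 8.80 and 8.95. No treated array overlapped the DMSO range, and all lay above it at both doses, which held for 2.78% of all tested genes at 28 µM and 5.93% at 42 µM. For comparison, all 4 arrays lay below DMSO for 2.93% of genes at 28 µM, and none of the 10 genes was among them. The mean rose from 7.09 ± 0.14 in DMSO to 8.89 ± 0.43 at 42 µM (SD, n = 4 each), and it was 8.35 ± 0.62 at 28 µM.

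ASS1 rose by 1.80 at 42 µM (SE 0.27, interval 1.22 to 2.39), or 3.49-fold (interval 2.33 to 5.23), which was the 31st highest of all tested genes. At 28 µM the difference was 1.25 (SE 0.27, interval 0.67 to 1.84), not called, and it was 1.53 and called without replicate 4. The difference between the doses was 0.55 with an interval of -0.04 to 1.13, and 0.28 without 28 µM replicate 4. The probe was dim in DMSO, with a raw intensity between 162 and 206 beside an array median of 170 to 182 on those arrays. The call at 42 µM was lost under the same 3 settings as that of ARG1, at 1.76 without DMSO replicate 2, 1.62 without 42 µM replicate 2 and 1.74 with the slide as a fixed block.

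ASL, which cleaves the product of ASS1 to arginine and fumarate, was not called at either dose. Its log2 level ran from 9.99 to 10.26 in DMSO, from 9.92 to 10.58 at 28 µM and from 9.75 to 10.59 at 42 µM. The difference was 0.16 at 28 µM (interval -0.25 to 0.56) and 0.09 at 42 µM (interval -0.31 to 0.50). The spread between arrays was wider in the treated groups (SD 0.30 and 0.38) than in DMSO (SD 0.11).

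**Figure D2:**
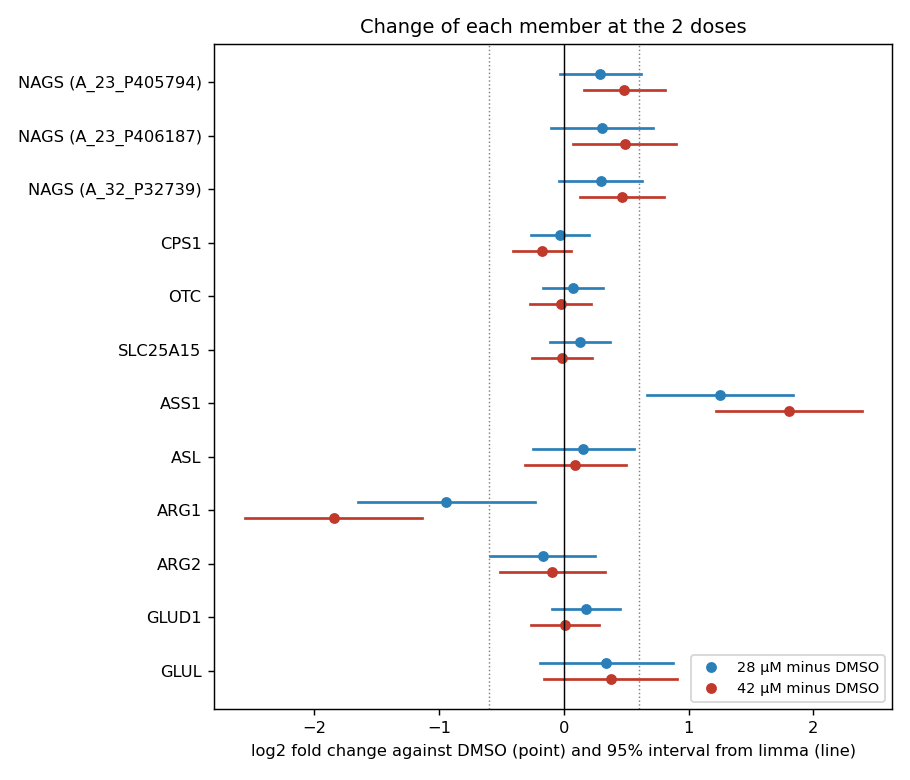
Log2 fold change against DMSO of each of the 12 probes at 28 µM (blue) and 42 µM (red), with the 95% interval from limma over 12 arrays as a line; dotted lines mark 0.6 and -0.6. At 42 µM the interval of ARG1 (-2.55 to -1.14) and that of ASS1 (1.22 to 2.39) lie wholly beyond these lines, and the intervals of ARG2, ASL, CPS1, OTC, SLC25A15, GLUD1 and GLUL hold 0.

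NAGS makes N-acetylglutamate, the activator of CPS1, and its 3 probes had like differences. The brightest read 10.60, 10.53, 10.56 and 10.75 in DMSO. It read 11.40, 10.86, 11.02 and 10.39 at 28 µM, and 11.42, 11.17, 11.00 and 10.79 at 42 µM. On this probe all 4 arrays at 42 µM lay above all DMSO arrays, as for 5.93% of all tested genes, and at 28 µM replicate 4 was the lowest of the 12. On the third probe, which does not overlap it in sequence, the ranges met: 42 µM replicate 1 read 8.47 and DMSO replicate 4 read 8.48. The difference at 42 µM was 0.49 for this probe (interval 0.08 to 0.90), 0.47 for the second (interval 0.13 to 0.80) and 0.49 for the third (interval 0.16 to 0.81), and none was called. At 28 µM the 3 values were 0.31, 0.29 and 0.29, and 0.48, 0.43 and 0.31 without replicate 4. The first and second probe share 38 bases and so are not separate evidence (r = 0.98 over the 12 arrays). The third shares at most 5 bases in a row with either and had r of 0.53 and 0.61 with them.

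CPS1 and OTC, the mitochondrial enzymes that define the committed steps of the cycle in liver, were at background. OTC was well above background on 1 array in DMSO, 2 at 28 µM and 2 at 42 µM, and its log2 level lay between 5.95 and 6.31 throughout. The CPS1 probe is spotted 10 times per array. Of its 40 spots per group, 18 in DMSO, 21 at 28 µM and 6 at 42 µM were well above background. In DMSO they lay on replicates 3 and 4 (9 spots each), and at 28 µM on replicates 1 and 4 (10 spots each) with 1 more on replicate 3. These 4 arrays with 9 or 10 detected spots share slides 3 and 4. The 42 µM arrays on those slides had 1 of 10 (replicate 2, slide 3) and 0 of 10 (replicate 1, slide 4). The CPS1 level at 42 µM is a bound only, since no array there passed detection, and the measured difference from DMSO was -0.17 with an interval of -0.41 to 0.06. CPS1 differed by -0.03 at 28 µM and OTC by 0.07 at 28 µM and -0.02 at 42 µM. Differences of probes this close to background are compressed, and a change of either transcript was not detectable with these probes.

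SLC25A15, the mitochondrial ornithine carrier, had small differences with overlapping ranges. Its log2 level ran from 10.75 to 11.04 in DMSO, from 10.90 to 11.18 at 28 µM and from 10.76 to 11.01 at 42 µM. The difference was 0.13 at 28 µM (interval -0.11 to 0.37) and -0.01 at 42 µM (interval -0.25 to 0.22).

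GLUD1, glutamate dehydrogenase, releases ammonia from glutamate, and GLUL, glutamine synthetase, binds ammonia into glutamine. GLUD1 ran from 11.31 to 11.64 in DMSO, from 11.43 to 11.90 at 28 µM and from 11.38 to 11.68 at 42 µM, with differences of 0.18 (interval -0.09 to 0.45) and 0.01 (interval -0.26 to 0.29). GLUL read 9.27, 10.27, 10.07 and 10.64 in DMSO, the widest DMSO spread of the 12 probes (SD 0.58), and ran from 10.06 to 10.80 at 28 µM and from 10.30 to 10.70 at 42 µM. Its differences were 0.34 (interval -0.19 to 0.88) and 0.38 (interval -0.16 to 0.91). Between the doses, the members other than ARG1 and ASS1 differed by -0.17 (GLUD1) to 0.19 (the third NAGS probe). The GLUL ranges overlapped in all groups, and the intervals hold both no difference and one beyond 0.6.

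The 12 arrays sat on 5 slides, and 3 slides held both DMSO and 42 µM. Within them ARG1 at 42 µM minus DMSO was -2.13, -2.28 and -2.36, and ASS1 was 1.84, 2.24 and 1.15, so that the direction held on each. At 28 µM minus DMSO the 3 shared slides gave -1.08, 0.01 and -1.28 for ARG1, and between 0.34 and 1.70 for ASS1. The value of 0.01 and that of 0.34 came from the slide with 28 µM replicate 4. For the brightest NAGS probe the range within slides was 0.47 to 0.68 at 42 µM and -0.17 to 0.65 at 28 µM. For the third NAGS probe it was -0.0091 to 0.77 at 42 µM.

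**Figure D3:**
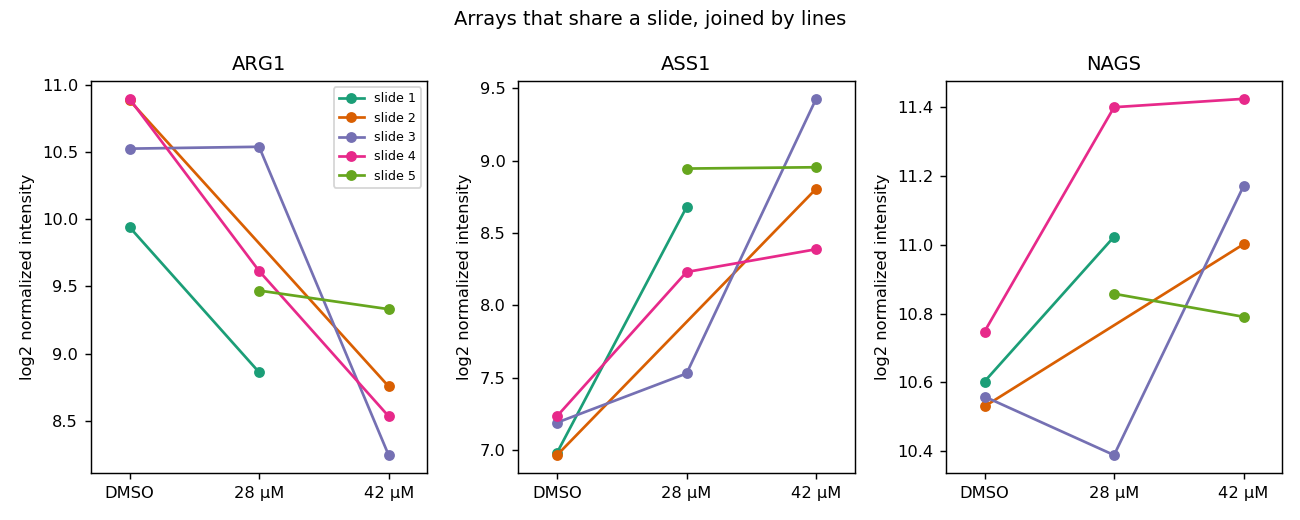
Log2 normalized intensity of ARG1, ASS1 and the brightest NAGS probe on each array, with lines joining arrays on the same slide (1 colour per slide, 5 slides). On the 3 slides that held both DMSO and 42 µM, ARG1 falls between them (-2.36 to -2.13) and ASS1 rises (1.15 to 2.24). Slide 5 joins 28 µM to 42 µM only, with -0.14 for ARG1 and 0.01 for ASS1. Slide 3, with 28 µM replicate 4, is nearly level from DMSO to 28 µM for ARG1 (0.01).

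The 5 genes with the pattern most like ARG1, by Pearson correlation over the 12 arrays, were CDK1 (r = 0.976), TMEM141 (0.976), CKAP2L (0.968), DSCC1 (0.963) and ATAD2 (0.962). CDK1 is a kinase of the cell division cycle and ATAD2 is a chromatin protein. At 42 µM CDK1 differed from DMSO by -1.23, TMEM141 by -0.81, CKAP2L by -1.27, DSCC1 by -0.97 and ATAD2 by -0.84. The 12 points share 3 treatment groups, so these correlations follow group differences as well as array spread.

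Around the cycle, 44 genes in 6 lists by role were measured, and all 44 were tested. They cover supply of aspartate, bicarbonate and ornithine (9 genes), cationic amino acid transport (4), use of arginine and ornithine outside the cycle (10), exchange with proline and glutamate (5), ammonia and glutamine handling (8) and regulators tied to urea cycle genes (8). At 42 µM 2 genes rose, against 1.73% of all tested genes, 1 fell, against 1.58%, and the rest were not called. By an unadjusted limma p below 0.05 with the size limit, 6 were higher and 1 lower at 42 µM. The shares of all tested genes were 3.41% and 2.61%. The lists were chosen with earlier results of these data known, so nothing is read from these counts. The median over the 44 was 0.02. At 28 µM limma called 0 of 44, against 0% of all tested genes. At an unadjusted p below 0.05 with the size limit 2 were higher and 0 lower in limma, against 1.65% and 1.34% of all tested genes. Without 28 µM replicate 4, limma called 2 of the 44 higher, beside 438 of all 33467 tested probes.

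PYCR1, which makes proline from the intermediate that ornithine and glutamate share, rose by 0.71 at 42 µM (SE 0.15, limma adjusted p = 0.0269), from a mean of 13.80 ± 0.08 to 14.51 ± 0.05 (SD, n = 4). Its dimmer probe gave 0.64 and was not called. CEBPB, a transcription factor of the C/EBP family that binds liver promoters, rose by 1.45 (SE 0.32, limma adjusted p = 0.0302), from 11.55 ± 0.09 to 12.99 ± 0.57, while its dimmer probe gave 0.10. ALDH4A1, which turns the same intermediate to glutamate, fell by 0.70 on the dimmest of its 3 probes (SE 0.17, limma adjusted p = 0.041), and the others gave -0.01 and 0.08. The count of called higher genes ranged from 0 to 3 when 1 array was left out: it was 0 without any 1 DMSO array or without 42 µM replicate 1 or 2, and 1 without 42 µM replicate 4. ALDH4A1 was lost without any 1 DMSO array, without 28 µM replicate 3 and without 42 µM replicate 1, 2 or 3. None of the 3 genes was called in the fit with slide as a fixed block.

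SLC7A1, the main carrier of arginine into cells, had the largest difference of the 44 genes at 42 µM, 1.60 on its brighter probe, but was not called (SE 0.43, limma adjusted p = 0.0614), and its other probe gave -0.03. PPARGC1A, a coactivator of liver metabolism, differed by 0.84 on its brighter probe (adjusted p = 0.107 in limma) and by 0.12 on the other. The glutamine carrier SLC1A5 differed by 0.80 (adjusted p = 0.284 in limma). RHBG, an ammonia transporter, and FH, the fumarase that takes up the fumarate of the ASL step, were named after their values were seen: they differed by -0.48 and -0.44 (limma adjusted p = 0.0313 and 0.0401), below the size limit of 0.6. The list of arginine and ornithine use outside the cycle, 10 genes with OAT, ODC1 and the nitric oxide synthases among them, had no called gene and a median of -0.04.

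**Figure D4:**
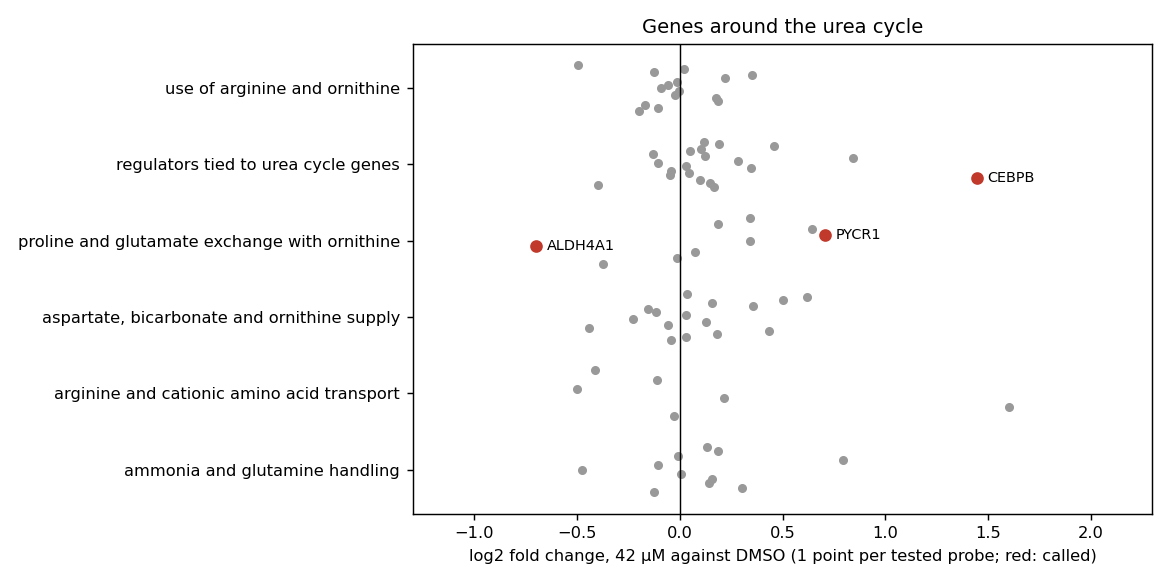
Log2 fold change at 42 µM against DMSO for every tested probe of the 44 genes around the cycle, by list (vertical axis), with called probes in red. Called probes are PYCR1 at 0.71, CEBPB at 1.45 and ALDH4A1 at -0.70, and the grey point at 1.60 is SLC7A1, which was not called.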

How the data were processed

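The authors deposited Agilent Feature Extraction 10.7.3.1 output per array, per the labels, with mean and background intensity per spot, and a table of log2 values that they had background-corrected and quantile normalized with limma. Here the deposited intensity values were read in R 4.3.3 with the package data.table (version 1.17.8). Control spots and outlier spots were left out, after which limma 3.58.1 subtracted background by the Edwards method and quantile normalized the arrays, following the study's methods. These log2 values correlated with those of the authors at 0.999 or more on every array. A probe was detected when at least 50% of its spots were well above background, and it was kept when detected on 2 or more arrays of a group, a reading of the methods' majority rule, which left 33467 of 41000 probes. One limma fit over all 12 arrays, with no block, gave the contrasts, with Benjamini-Hochberg adjustment over all tested probes. A probe was called at an adjusted p below 0.05 and a log2 difference of at least 0.6 in size, and a gene was called when any of its probes was; the brightest probe stood for a gene in medians and ranks. The scripts were tested on simulated data. Probe names are those of the scanner files.

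Members and lists were chosen with earlier results of these data known. Named were all 10 members, the called genes of the 44 around the cycle and the 5 genes most like ARG1. SLC7A1, PPARGC1A and SLC1A5, which had the largest differences among the genes not called, and RHBG and FH were named after their values were seen. Arrays have no read depth: their number limits precision. Alternatives were other background corrections and scalings, the authors' values, other filters, slide or replicate as a block, 2 groups at a time, a log2 limit of 1 and leaving out each array. Figures were drawn with matplotlib.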

Additional observations from a re-analysis of the deposited data

How the results depend on the processing

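Neither ARG1 nor ASS1 changed sign at 42 µM under the alternatives run; the signs of single related genes were not followed. At 42 µM the count of members called higher and that called lower, 1 each, became 0 with the slide as a fixed block, under which limma called 0 probes higher and 1 lower of all tested. Both ranged from 0 to 1 when 1 array was left out. The 0 came without DMSO replicate 2 and without 42 µM replicate 2, where limma called 0 probes higher and 0 lower of all tested. At 28 µM these counts were 0, and 0 to 1 when 1 array was left out, the 1 in each direction coming without 28 µM replicate 4. The related genes called higher at 42 µM, 2, became 1 with the processed signal scaled to the 75th percentile, 0 with the slide as a fixed block, 4 with only the 2 groups compared and 1 with a log2 limit of 1, and ranged from 0 to 3 when 1 array was left out. The related gene called lower became 0 with the processed signal, the slide as a fixed block and the log2 limit of 1, and ranged from 0 to 1 when 1 array was left out. At 28 µM related genes called higher ranged from 0 to 2 when 1 array was left out. The median over members at 42 µM was -0.091 with Edwards values scaled to the 75th percentile, -0.11 with the processed signal, and 0.053 with a strict filter or with probes as the unit, and -0.035 to 0.047 when 1 array was left out; its sign is not settled. At 28 µM it was 0.089 with Edwards values scaled to the 75th percentile and 0.094 to 0.16 when 1 array was left out. Between the doses it was -0.015 with a strict filter or with probes as the unit.

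Replicate numbers were not shown to pair the samples: same-numbered arrays correlated between -0.46 and 0.62 in their deviations from the group means. The best match had the same number for 0 of 4 arrays between DMSO and 28 µM. It did for 1 between DMSO and 42 µM and for 2 between the doses. With the replicate block, 4 related genes were called higher at 42 µM, and limma called 776 probes higher and 590 lower, against 472 and 413 without it. Over the alternatives ARG1 at 42 µM lay between -2.15 and -1.69 and ASS1 between 1.62 and 2.33. CPS1 and OTC were limited by signal close to background.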
